A study of Mus musculus with 29 samples.

Results

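Sgk1, Tsc22d3, Fkbp5, Zbtb16, Pdk4, Plin4 and Sult1a1, 7 genes that glucocorticoid hormones are known to induce, were followed in 29 expression arrays of the mouse brain. They were chosen by name: every probe set whose platform annotation gives 1 of these 7 symbols was taken, which gives 11 of the 22626 probe sets tested and 7 of 12393 genes. Sgk1, Pdk4, Plin4 and Sult1a1 have 1 probe set, Fkbp5 and Zbtb16 have 2 and Tsc22d3 has 3, and a gene is described by its probe set of highest mean unless another is named. Total RNA came from the prefrontal cortex (PFC, 18 arrays) and the caudate-putamen (CPu, the dorsal striatum, 11 arrays).

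The mice were FVB/N, the parent strain, and 2 lines on that background that carry human acetylcholinesterase (AChE), the enzyme that degrades acetylcholine: TgS expresses the AChE-S variant and TgR the AChE-R variant. MPTP, which the brain converts to a toxin that dopamine neurons take up, was given as 4 doses of 20 mg/kg at intervals of 2 h (80 mg/kg in all), and tissue was taken 4 days later. The labels count 6 saline and 6 MPTP mice in each strain (36 mice) under 12 h of light and 12 h of dark, and call the unexposed arrays naive. FVB/N, TgS and TgR each have 4 naive PFC arrays, 2 MPTP PFC arrays and 2 naive CPu arrays, and FVB/N and TgS have 2 MPTP CPu arrays where TgR has 1. The sources used here do not say whether naive mice are the saline mice, how many mice an array holds, their age or sex, or which promoter drives the transgenes. One naive FVB/N CPu array (replicate 2) has a description field that calls it MPTP-exposed, while its title, source and treatment fields call it naive, and it was kept as naive.

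Glucocorticoids (corticosterone in mice) enter cells and bind the glucocorticoid receptor, encoded by Nr3c1, which moves to the nucleus and binds palindromic DNA elements near the genes it induces. The hormone follows a daily rhythm and rises with stress and illness. In brain, Sgk1, Fkbp5, Pdk4, Plin4 and Zbtb16 are often used as readouts of receptor activity, and several of them respond in glia and vessels as well as in neurons.

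RefSeq promoter windows (250 bases before and 50 after an annotated start, GRCm38.p6) were held for 6 of the 7 genes, 13 windows in all. They were searched on both strands for the palindromic glucocorticoid response element (AGAACA, then any 3 bases, then TGTTCT) and for its core hexamer AGAACA, which the full element holds on each strand. The full element occurs in 3 of 32851 windows of all genes (0.00913%), and 1 of these 3 is a window of Sgk1. Its letters run from -189 to -175, counted from the start site. The hexamer is common, with 19.0% of all windows holding it, and 5 of the 13 windows hold it, in Sgk1, Sult1a1 and Tsc22d3. A window with at least 1 hexamer is printed below for each of these genes, because they show how the receptor's motif lies at Sgk1 and what the nearest matches at other members look like. Capitals mark the full element and the hexamers in the Sgk1 window, and hexamers in the others.
Sgk1, chr10:21993640-21993939 (+): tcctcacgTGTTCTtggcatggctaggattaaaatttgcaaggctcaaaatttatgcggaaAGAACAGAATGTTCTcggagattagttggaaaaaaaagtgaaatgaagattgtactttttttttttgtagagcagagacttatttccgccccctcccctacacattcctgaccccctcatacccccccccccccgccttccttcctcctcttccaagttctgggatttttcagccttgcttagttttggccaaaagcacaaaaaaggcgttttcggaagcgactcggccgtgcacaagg
Sult1a1, chr7:126676369-126676668 (-): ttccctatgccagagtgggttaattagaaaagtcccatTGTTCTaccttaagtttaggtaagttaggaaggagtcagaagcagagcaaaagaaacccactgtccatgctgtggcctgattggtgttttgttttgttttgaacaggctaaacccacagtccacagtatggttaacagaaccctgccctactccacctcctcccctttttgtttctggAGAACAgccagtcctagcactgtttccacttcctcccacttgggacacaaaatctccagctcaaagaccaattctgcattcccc
Tsc22d3, chrX:140600473-140600772 (-): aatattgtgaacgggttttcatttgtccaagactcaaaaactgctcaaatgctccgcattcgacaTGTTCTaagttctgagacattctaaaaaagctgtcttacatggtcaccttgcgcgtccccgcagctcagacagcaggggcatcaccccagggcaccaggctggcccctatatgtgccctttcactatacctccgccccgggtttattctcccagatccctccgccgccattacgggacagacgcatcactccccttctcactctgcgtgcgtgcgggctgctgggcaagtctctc
The Sgk1 window holds a further hexamer from -242 to -237. In Sult1a1 the hexamers lie from -212 to -207 and from -34 to -29, and in Tsc22d3 from -185 to -180. Zbtb16 is named only. No match says only that these letters are not in this window.

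**Figure D1:**
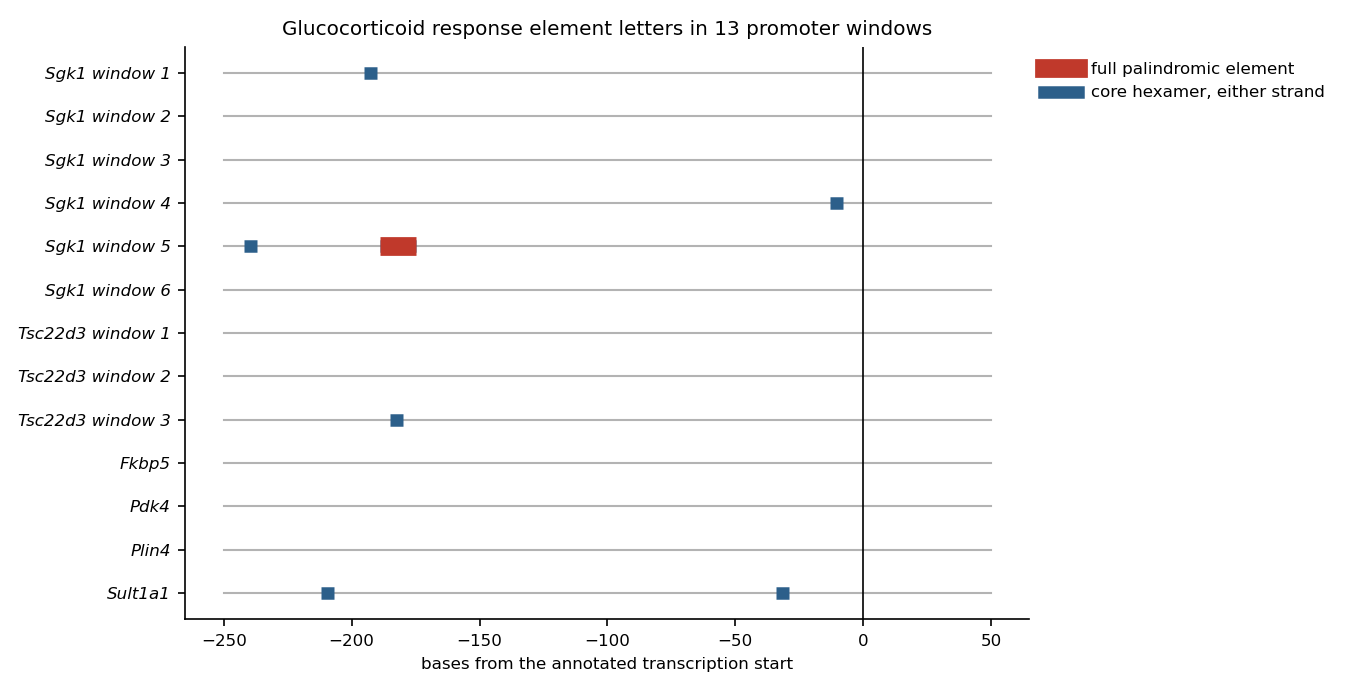
Position of the full palindromic element (red) and of hexamers on either strand (blue) in the 13 promoter windows, in bases from the annotated start, with windows numbered by chromosome position. The 1 full element lies in the fifth Sgk1 window, and windows of Fkbp5, Pdk4 and Plin4 hold neither.

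The deposited values are log2 signals, and differences below are log2 differences with the standard error from limma, fitted to all 29 arrays. A difference is called higher or lower where the adjusted p (Benjamini-Hochberg over 22626 probe sets) is under 0.05. The model assumes 1 spread per probe set for all groups, including that with a single array (MPTP TgR CPu). Since the labels do not say that arrays came from separate animals, p-values measure the spread between arrays, which may be technical. In these tissue extracts, more or fewer cells of a type and more or less RNA per cell cannot be told apart.

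Median log2 signals of the arrays lay between 7.61 and 7.78. The 6 naive PFC arrays that are replicates 1 and 2 of the 3 strains stood apart: Xist read 8.62 to 10.61 against 6.78 to 7.24 in the other 23 arrays, and the Y-linked Kdm5d 3.58 to 4.32 against 7.20 to 7.76. By these genes the 6 read as female and the others as male, and in any PFC difference that rests on the 6, sex and MPTP or region cannot be told apart. The 5′ minus 3′ actin signal was -2.30 in 1 of them, naive TgR PFC replicate 2. The rest of the 6 read -1.30 to -0.79, within the -1.41 to -0.62 of the other 23 arrays. The 5′ minus 3′ Gapdh signal was -0.35 and -0.17 in TgS and -0.23 and -0.66 in TgR of the 6. These lay below the -0.06 to 0.09 of the other 23, while FVB/N of the 6 read -0.04 and 0.01. Where a PFC difference rests on the 6, RNA quality also cannot be told apart from MPTP or region. The fit has a term for the set of naive PFC replicates 3 and 4, so that MPTP and regional differences of the PFC averaged over strains rest on the 6 arrays that stand apart. PFC values are therefore given again without them, when they rest on replicates 3 and 4. Those values have a limit of their own. The region label of replicates 3 and 4 is spelled differently from that of every MPTP PFC array. In the values without the 6, MPTP and this set therefore cannot be told apart. Among naive PFC arrays, 53.7% of probe sets were called between the sets by limma. Striatal projection neuron markers had mean log2 signals of 11.41 to 11.83 in CPu and 8.57 to 9.72 in PFC arrays, and cortical glutamatergic markers 7.88 to 8.59 and 9.04 to 9.86, so each array matched its labelled region. CPu differences are the same in both fits, and only their p-values move. The set term is 1 value for all 3 strains. Where the naive PFC sets differ in a way that varies by strain, the fit to all arrays counts this as spread, in CPu tests too.

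**Figure D2:**
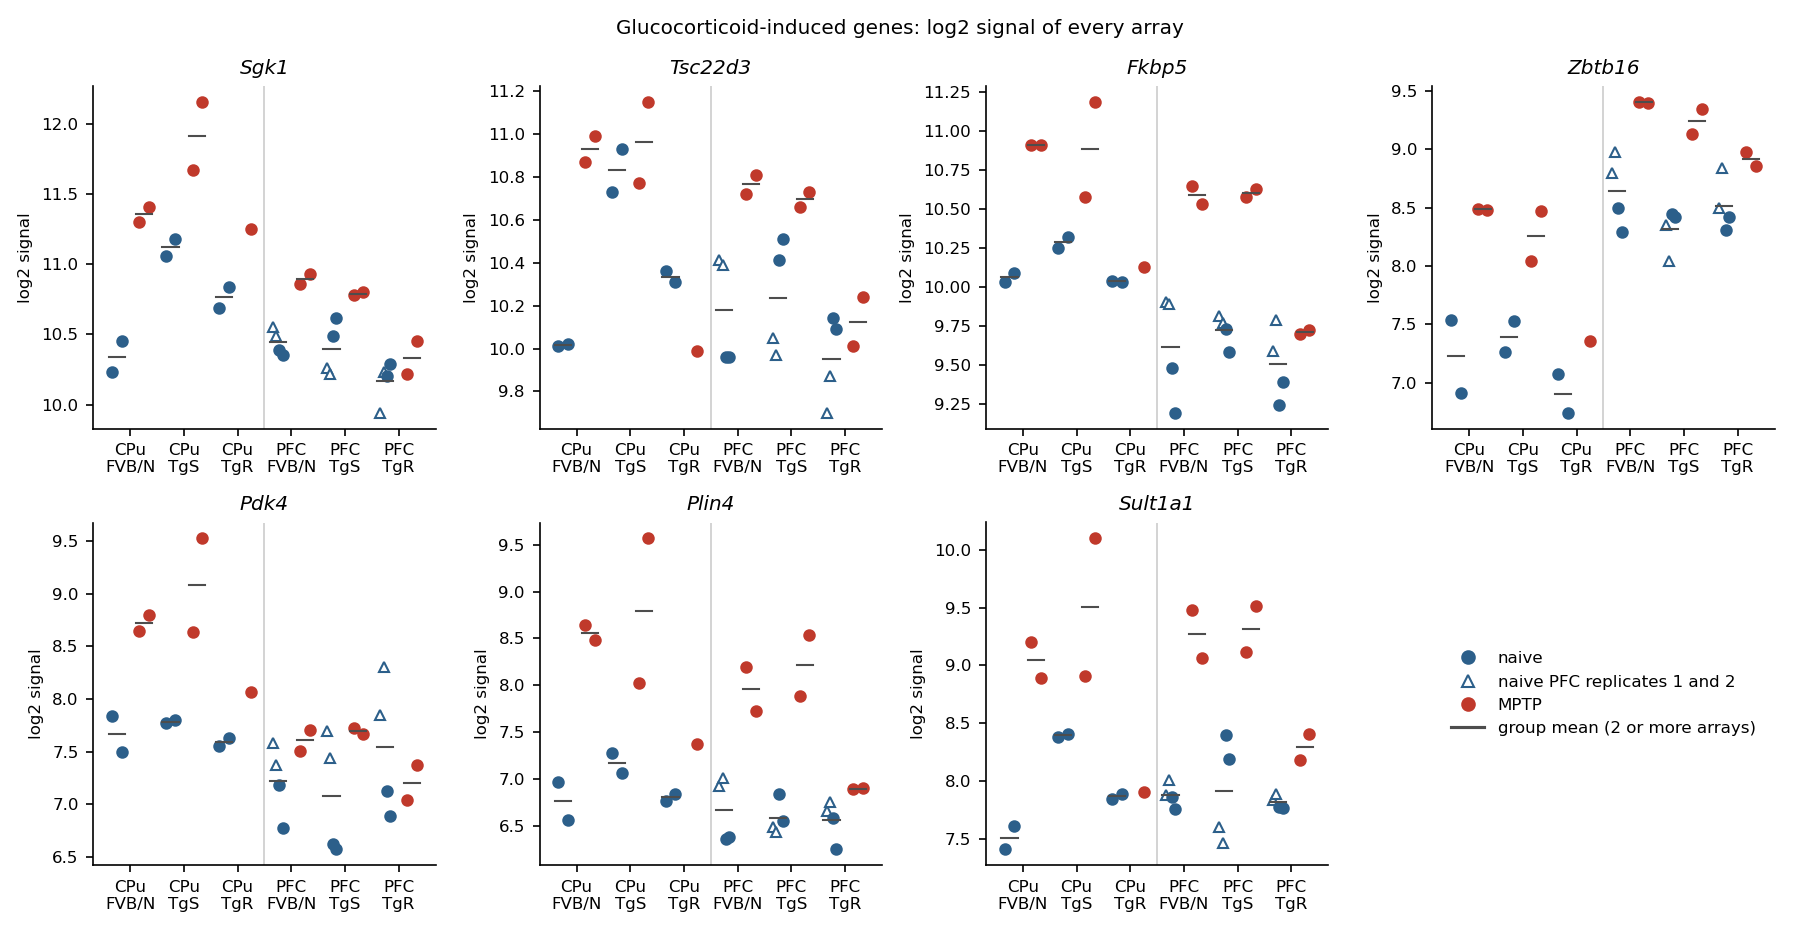
Log2 signal of each array for the 7 genes, by region and strain, with naive arrays in blue, MPTP arrays in red, the naive PFC replicates 1 and 2 as open triangles and group means as lines. MPTP arrays of FVB/N and TgS lie high in most panels, and those of TgR lie below them in both regions.

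In the CPu, MPTP arrays read higher than naive arrays for 6 of the 7 genes when averaged over strains, against 0.884% of all probe sets called higher (1.43% called in all; without the 6 arrays, 6 genes against 2.2%). The median difference of the 7 was 0.86, against 0.01 over all probe sets. Plin4, Pdk4, Sult1a1, Zbtb16, Sgk1 and Fkbp5 passed the test and Tsc22d3 did not. Every MPTP array exceeded every naive array of any strain for Sgk1, Pdk4 and Plin4 (3 of 7; 1.08% of probe sets). The 6 calls held with any 1 array left out other than the single MPTP TgR array, without which the mean over strains could not be fitted. Without the term for the naive PFC set Fkbp5 (adjusted p = 0.0908) and Pdk4 (adjusted p = 0.133) lost theirs, leaving 4, against 0.287% of probe sets.

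Sgk1 (chr10:21882184-21999903, as annotated in GRCm38.p6) encodes a kinase that regulates ion channels and transporters. It read 10.23 and 10.45 in the naive FVB/N CPu arrays and 11.30 and 11.41 after MPTP. TgS read 11.06 and 11.18, then 11.67 and 12.16, and TgR read 10.69 and 10.84, then 11.25 in its single MPTP array. Every MPTP array thus lay above every naive array, and TgS was the highest in both arms. Averaged over strains Sgk1 rose 1.7-fold (log2 difference 0.77 ± 0.09, limma adjusted p = 0.0002). In FVB/N the difference was 1.02 ± 0.14 and in TgS 0.80 ± 0.14, both called. The TgR difference of 0.49 ± 0.18 was not called.

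Tsc22d3 (chrX:140539528-140600522) encodes GILZ, a leucine zipper protein that carries anti-inflammatory effects of glucocorticoids. It read 10.01 and 10.02 in naive FVB/N CPu and 10.87 and 10.99 after MPTP. TgS read 10.73 and 10.93, then 10.77 and 11.15, and TgR 10.36 and 10.31, then 9.99. The FVB/N arms were well apart, those of TgS overlapped with both arms high, and the TgR MPTP array lay below both naive ones. The rise was called in FVB/N (0.92 ± 0.19, 1.89-fold, limma adjusted p = 0.0372), and the mean over strains was not (0.23 ± 0.12, adjusted p = 0.46). Its other probe sets gave 0.31 ± 0.17 and 0.27 ± 0.10 for that mean, also not called.

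Fkbp5 (chr17:28398753-28486149) encodes a co-chaperone that lowers the receptor's hormone binding, and is a feedback target of the receptor. It read 10.03 and 10.09 in naive FVB/N CPu and 10.91 in both MPTP arrays. TgS read 10.25 and 10.32, then 10.58 and 11.19, and TgR 10.04 and 10.03, then 10.13. The single TgR MPTP array lay within the range of the naive arrays of the other strains. Fkbp5 rose 1.43-fold over strains (0.52 ± 0.09, limma adjusted p = 0.00525). FVB/N rose by 0.85 ± 0.15 and TgS by 0.60 ± 0.15. TgR differed by 0.10 ± 0.18, not called. The second Fkbp5 probe set gave 0.35 ± 0.12 over strains, which was not called (adjusted p = 0.182).

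Zbtb16 (chr9:48651797-48836225) encodes PLZF, a zinc finger transcription repressor. Its naive FVB/N CPu arrays read 7.54 and 6.91 and its MPTP arrays 8.49 and 8.48. TgS went from 7.26 and 7.53 to 8.04 and 8.47, and TgR from 7.07 and 6.74 to 7.36. The FVB/N and TgS MPTP arrays lay above all naive arrays, and the TgR array did not. Zbtb16 rose 1.81-fold over strains (0.86 ± 0.13, limma adjusted p = 0.0021), with 1.26 ± 0.21 in FVB/N. TgS differed by 0.86 ± 0.21, just outside the threshold (adjusted p = 0.0515; 0.00991 without the 6 arrays), and TgR by 0.46 ± 0.26. A second Zbtb16 probe set stayed between 6.43 and 7.36 on all 29 arrays and gave -0.05 ± 0.08 in this comparison, so the Zbtb16 values rest on 1 of its 2 probe sets.

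Pdk4 (chr6:5483351-5496278) encodes a kinase that restrains pyruvate dehydrogenase and so spares glucose. It read 7.84 and 7.50 in naive FVB/N CPu and 8.65 and 8.80 after MPTP. TgS read 7.77 and 7.80, then 8.64 and 9.53, and TgR 7.55 and 7.63, then 8.07. No MPTP array overlapped a naive one. Pdk4 rose 1.93-fold over strains (0.95 ± 0.14, limma adjusted p = 0.00178), and 2.46-fold in TgS (1.30 ± 0.23). The FVB/N difference of 1.06 ± 0.23 was not called with all arrays (adjusted p = 0.0602) and was called without the 6 PFC arrays (adjusted p = 0.024).

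Plin4 (chr17:56100587-56109948), which encodes a lipid droplet coat protein, had the largest difference of the 7 over strains. It read 6.97 and 6.56 in naive FVB/N CPu and 8.64 and 8.48 after MPTP. TgS read 7.28 and 7.07, then 8.02 and 9.57, and TgR 6.77 and 6.84, then 7.37. Its MPTP arrays all lay above the naive ones, but the 2 TgS MPTP arrays were far apart. Plin4 rose 2.51-fold over strains (1.33 ± 0.21, limma adjusted p = 0.0021), 3.47-fold in FVB/N and 3.07-fold in TgS, and TgR differed by 0.57 ± 0.41, which was not called.

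Sult1a1 (chr7:126672865-126690443) encodes a sulfotransferase of phenols. It read 7.41 and 7.61 in naive FVB/N CPu and 9.20 and 8.89 after MPTP. TgS read 8.38 and 8.41, then 8.91 and 10.10, and TgR 7.85 and 7.89, then 7.91. The TgR arms were almost at 1 level. Sult1a1 rose 1.86-fold over strains (0.90 ± 0.18, limma adjusted p = 0.0111) and 2.9-fold in FVB/N. TgS differed by 1.11 ± 0.28 (adjusted p = 0.057) and TgR by 0.04 ± 0.35, neither called.

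By strain in the CPu, 6 of the 7 genes were called higher in FVB/N (all probe sets 0.199%), 4 in TgS (0.743%) and 0 in TgR (0.0265%; limma, 1 gene at an unadjusted p under 0.05). Without the 6 PFC arrays the counts were 7, 6 and 0, and without the set term Sgk1 alone was called in FVB/N and Sgk1 and Plin4 in TgS. These calls within 1 strain rest on few arrays. With all arrays, no other probe set of Fkbp5, Zbtb16 or Tsc22d3 was called in either strain. In FVB/N these gave 0.69 for Fkbp5, 0.045 for Zbtb16, and 1.165 and 0.65 for Tsc22d3. In TgS they gave 0.43, 0.03, and 0.035 and 0.265. Without MPTP TgS replicate 2, the TgS differences were 0.85 for Plin4, 0.86 for Pdk4, 0.55 for Sgk1 and 0.30 for Fkbp5, and no call was left. In FVB/N the Sgk1 difference ran from 0.91 to 1.13 with any of its 4 CPu arrays left out, but each such fit kept at most 1 of the 6 calls. Within strain, every MPTP array exceeded every naive array for 7 genes in FVB/N (21.6% of all probe sets) and 6 in TgS (21.4%). The single TgR MPTP array lay above both its naive arrays for 6 genes (38.9%) and below them for 1, Tsc22d3 (32.3%). Leaving out the naive FVB/N array whose labels disagree gave differences over strains of 0.24 for Tsc22d3 and 0.53 to 1.26 for the other 6, which all stayed called.

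**Figure D3:**
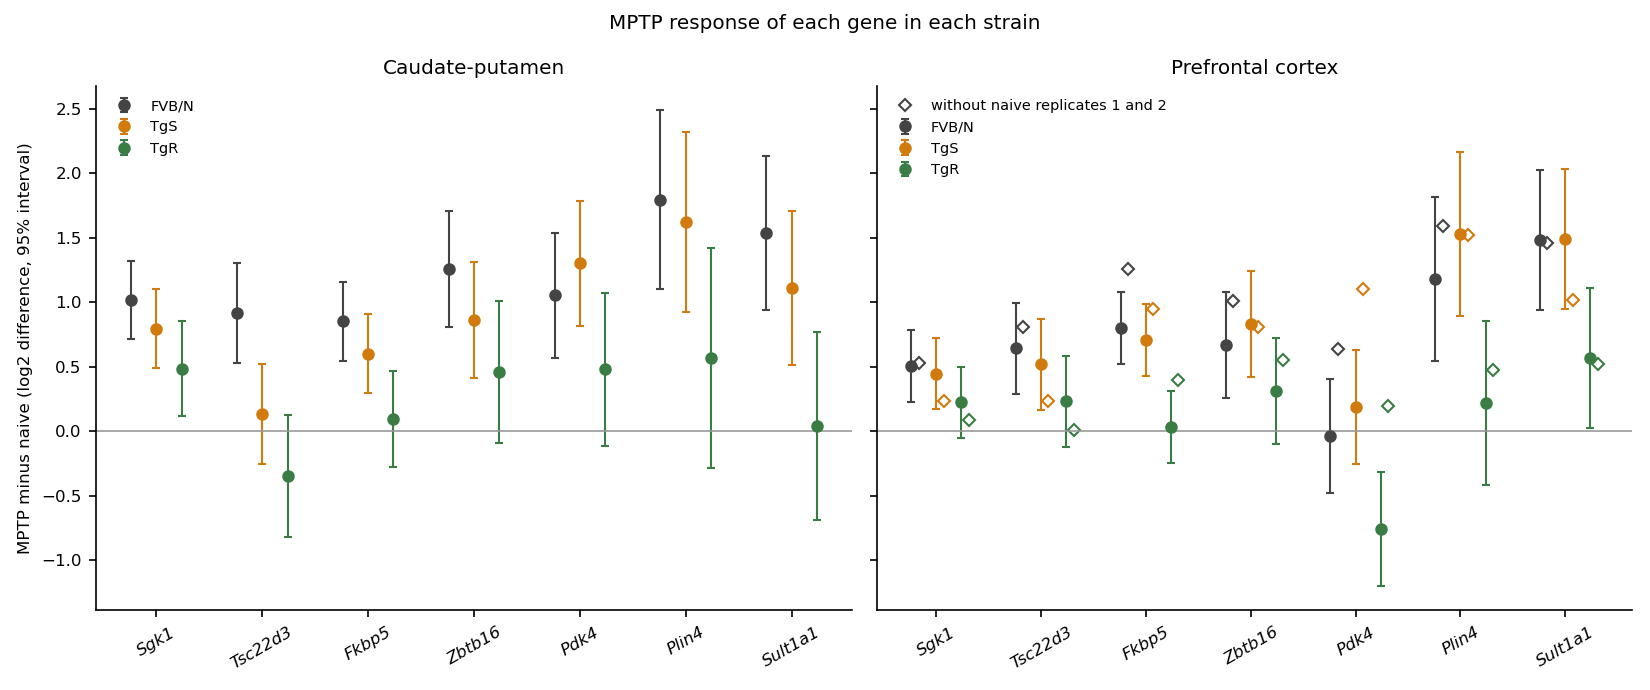
MPTP minus naive log2 difference of each gene in FVB/N (grey), TgS (orange) and TgR (green), with 95% intervals from the limma fit, and open diamonds for the PFC without naive replicates 1 and 2. TgR is the lowest of the 3 strains for every gene in both regions, and the Pdk4 differences in the PFC move up when those arrays are left out.

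In the PFC, 6 of the 7 genes were called higher after MPTP over strains, but 22.9% of all probe sets were called higher there (60.9% called in all). Without the 6 arrays that stand apart all 7 were called, against 28.5%. Of the effectors, Sult1a1 rose 2.26-fold (1.18 ± 0.16, limma adjusted p = 8.43e-06; 1.00 without the 6) and Plin4 1.97-fold (0.98 ± 0.19, adjusted p = 0.000287; 1.20 without). The 12 naive PFC arrays of Sult1a1 ran from 7.47 to 8.40. After MPTP FVB/N read 9.48 and 9.06, TgS 9.12 and 9.51, and TgR 8.18 and 8.41. FVB/N and TgS lay above every naive array, and the TgR arrays overlapped the highest naive ones. Plin4 ran from 6.25 to 7.01 in naive arrays, and after MPTP FVB/N read 8.19 and 7.73, TgS 7.89 and 8.54, and TgR 6.89 and 6.90. The TgR arrays lay within the range of all naive arrays and the others above it, but set against their own strain the TgR arrays exceeded all 4 naive ones for Plin4, Sult1a1 and Zbtb16 (3 of 7 genes, where 14.7% of probe sets did; 4 genes and 32.3% without the 6).

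Fkbp5 read 9.90, 9.89, 9.48 and 9.19 in naive FVB/N PFC and 10.65 and 10.53 after MPTP. TgS read 9.81, 9.77, 9.73 and 9.58, then 10.58 and 10.63, and TgR 9.59, 9.79, 9.24 and 9.39, then 9.70 and 9.72. FVB/N and TgS had no overlap between arms, whereas TgR MPTP arrays lay among its naive ones. FVB/N rose by 0.80 ± 0.13 and TgS by 0.70 ± 0.13, while the TgR difference of 0.03 ± 0.13 was not called. Without the 6 arrays the 3 differences were 1.26, 0.95 and 0.40, and the last was called at adjusted p = 0.0481. The second Fkbp5 probe set gave 0.87 ± 0.11 over strains, against 0.51 ± 0.08 for the first.

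Zbtb16 had a median of 8.44 over the 12 naive PFC arrays (8.04 to 8.98). After MPTP FVB/N read 9.41 and 9.40, TgS 9.13 and 9.35, and TgR 8.98 and 8.86, so that FVB/N and TgS cleared all naive arrays and TgR lay at their top. Sgk1 had a naive median of 10.32 (9.94 to 10.62), and after MPTP FVB/N read 10.86 and 10.93, TgS 10.78 and 10.80, and TgR 10.22 and 10.45. The TgR arrays were inside the naive range, and the others above it. Tsc22d3 had a naive median of 10.07 (9.70 to 10.51), and after MPTP FVB/N read 10.72 and 10.81, TgS 10.66 and 10.73, and TgR 10.01 and 10.24, in the same arrangement.

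Zbtb16 rose 1.52-fold over strains in the PFC (0.60 ± 0.12, limma adjusted p = 0.000426), Tsc22d3 1.38-fold (0.46 ± 0.11, adjusted p = 0.00114) and Sgk1 1.31-fold (0.39 ± 0.08, adjusted p = 0.000594). Without the 6 arrays these were 0.79, 0.35 and 0.28, all called. In TgS the call for Sgk1 and that for Tsc22d3 were lost without them (0.24 and 0.24, from 0.45 and 0.52). The probe sets of Tsc22d3 disagreed: the others gave 1.07 ± 0.15, called, and 0.04 ± 0.09, not called. The second Zbtb16 probe set was lower after MPTP (-0.24 ± 0.08, adjusted p = 0.0129).

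Pdk4 was the exception, and its direction hung on which naive arrays were used. Naive replicates 1 and 2 read 7.37 to 8.30 and replicates 3 and 4 read 6.57 to 7.18, without overlap, and the MPTP arrays read 7.04 to 7.72. The difference over strains was -0.20 ± 0.13 (limma adjusted p = 0.193) with all arrays, and 0.64 (adjusted p = 0.000326) without the 6. In TgR it was called lower with all arrays (-0.76 ± 0.21, adjusted p = 0.00789) and was 0.20 without them (adjusted p = 0.54). Set against each other, naive replicates 3 and 4 were lower than 1 and 2 for Pdk4 (-0.85 ± 0.13, adjusted p = 3.83e-05) and Fkbp5 (-0.36 ± 0.08, adjusted p = 0.00163), 2 of 7 genes where 53.7% of probe sets were called. The second Fkbp5 probe set gave -0.02 ± 0.11, not called, and 1 other Tsc22d3 probe set was higher in replicates 3 and 4 (0.73 ± 0.15, limma adjusted p = 0.000619). Tsc22d3 ran opposite ways between the sets: FVB/N read 10.41 and 10.39 against 9.96 and 9.96, TgS 10.05 and 9.97 against 10.41 and 10.51, and TgR 9.70 and 9.87 against 10.14 and 10.09.

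By strain in the PFC, 6 genes were called higher in FVB/N (all probe sets 12.4%), 6 in TgS (19.1%) and 0 in TgR (17.2%; limma, 2 at an unadjusted p under 0.05, Pdk4 and Sult1a1), where 1, Pdk4, was called lower (26.5%). Without the 6 arrays the counts of higher genes were 7, 5 and 2, against 11.4%, 21.4% and 13.9%. The 2 in TgR were Fkbp5 and Zbtb16. Of the probe sets not counted here, 1 of Tsc22d3 was called higher in TgR with all arrays (0.88 ± 0.24, limma adjusted p = 0.00776), and the second of Zbtb16 lower (-0.35 ± 0.12, adjusted p = 0.0258). Leaving out MPTP TgR replicate 1 also ended the call for Pdk4 there. Without the set term, Sgk1 and Tsc22d3 in FVB/N and Tsc22d3 in TgS were not called, and Pdk4 was -0.34 in TgR and 0.22 over strains, neither called.

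**Figure D4:**
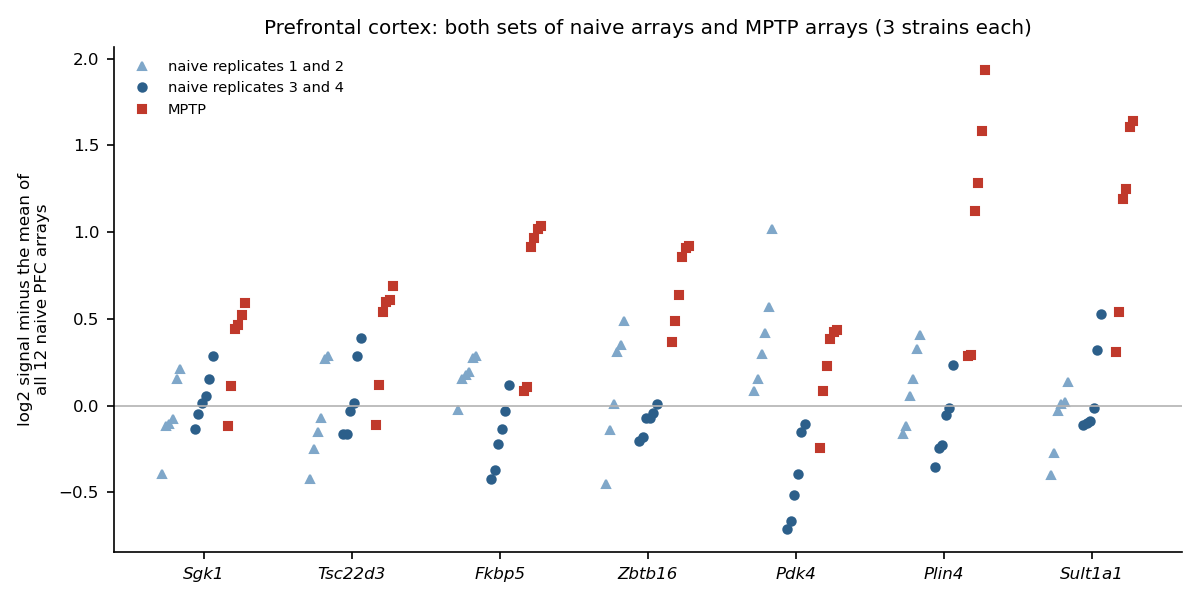
PFC log2 signal of each gene minus its mean over all 12 naive PFC arrays, with naive replicates 1 and 2 (light triangles), naive replicates 3 and 4 (blue circles) and MPTP arrays (red squares) of the 3 strains. For Pdk4 both naive sets lie apart, and the MPTP arrays fall between and across them.

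After MPTP, TgR had the lowest level of every gene. All TgR MPTP arrays lay below all FVB/N and all TgS MPTP arrays for 7 of 7 genes, in both regions. For TgR below FVB/N this holds for 19.8% of all probe sets in the PFC and 38.3% in the CPu, and for TgS above TgR 21% and 35.4%. Fewer passed the test. In the PFC Fkbp5 was lower in TgR than in FVB/N (-0.88 ± 0.15, 1.84-fold, limma adjusted p = 0.00864), 1 gene where 0.146% of probe sets were lower. It was higher in TgS than in TgR (0.90 ± 0.15, adjusted p = 0.00275), again 1 gene (0.57% higher). The first of these calls was lost without MPTP FVB/N PFC replicate 1 or either MPTP TgR PFC array (adjusted p 0.09 to 0.242). The second Fkbp5 probe set gave -0.92 ± 0.19 and 0.85 ± 0.19 for these PFC comparisons, both called. In the CPu TgR was lower than FVB/N for Fkbp5 (-0.78 ± 0.18, adjusted p = 0.0373) and Zbtb16 (-1.13 ± 0.26, adjusted p = 0.0408), 2 genes against 0.667% lower. The second probe sets of Fkbp5 and Zbtb16 gave -0.64 ± 0.23 and -0.37 ± 0.16 there, neither called.

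TgS exceeded TgR in the MPTP CPu for Sult1a1 (1.60 ± 0.35, 3.02-fold, limma adjusted p = 0.0318), Tsc22d3 (0.97 ± 0.23, adjusted p = 0.0443) and Fkbp5 (0.76 ± 0.18, adjusted p = 0.0466), 3 genes against 0.46% higher. Without MPTP TgS CPu replicate 2 these 3 calls were lost. Over 37 alternative settings the call was lost in 26 for Fkbp5, 17 for Tsc22d3 and 3 for Sult1a1. The second Fkbp5 probe set gave 0.72 ± 0.23 and the other Tsc22d3 probe sets 1.14 ± 0.33 and 0.27 ± 0.19, none called. TgS and FVB/N differed in 0 genes in either region by limma (0.362% and 0.694% of probe sets called). At an unadjusted p under 0.05 there were 0 genes in the PFC and 1, Sgk1, in the CPu, where TgS read 0.56 ± 0.14 higher and the call was made without the 6 PFC arrays (adjusted p = 0.018). Without the 6 PFC arrays the spread estimate is smaller, and TgR was lower than FVB/N for 3 genes in each region, and TgS higher than TgR for 4 in the PFC and 6 in the CPu. Without the set term none of these 7 calls between strains was made, and the CPu ones rest on a single TgR array.

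The response itself, MPTP minus naive, was smaller in TgR than in FVB/N for all 7 genes in both regions, but the test of that difference called 0 of 7 in the CPu and 0 of 7 in the PFC by limma. The background was 0.181% and 0.00442%, and 6 and 4 genes had an unadjusted p under 0.05. In the CPu the difference of responses was -1.50 ± 0.45 for Sult1a1 (95% interval -2.43 to -0.56), -1.26 ± 0.29 for Tsc22d3 (-1.87 to -0.65) and -1.23 ± 0.53 for Plin4 (-2.33 to -0.13). The smallest was -0.53 ± 0.23, for Sgk1. Tsc22d3 had an adjusted p of 0.109 with all arrays and 0.00198 without the 6 PFC arrays. In the PFC the differences ran from -0.96 ± 0.41 for Plin4 to -0.28 ± 0.18 for Sgk1, and Fkbp5 had the smallest p (-0.77 ± 0.18, adjusted p = 0.229).

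TgS and FVB/N responses differed in 0 genes in the CPu and 0 in the PFC (limma; 0.601% and 0% of probe sets, 1 and 0 genes at an unadjusted p under 0.05). The 1 was Tsc22d3 in the CPu (-0.79 ± 0.26), called without the 6 arrays (adjusted p = 0.0124). The intervals leave room for sizeable differences, such as -1.16 to 0.81 for Plin4 in the CPu. TgR against TgS, a comparison added after the values were seen, also gave 0 calls in each region (0.00884% and 0.0663%), with 3 and 4 genes at an unadjusted p under 0.05 and all 7 differences negative in both. These comparisons share their arrays, so their common sign is not independent evidence.

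Between regions, the response was larger in the CPu for Sgk1 (0.37 ± 0.12, limma adjusted p = 0.0206) and Pdk4 (1.15 ± 0.20, adjusted p = 0.000219), 2 genes where 43.3% of probe sets were called. Other probe sets of 2 genes went the opposite way with all arrays. The second of Fkbp5 (-0.53 ± 0.16, limma adjusted p = 0.0127) and 1 of Tsc22d3 (-0.76 ± 0.23, adjusted p = 0.0116) were called smaller in the CPu. Without the 6 arrays Sgk1 kept its call (0.48), Pdk4 lost it (0.30, adjusted p = 0.205) and Fkbp5 was called smaller in the CPu (-0.35, adjusted p = 0.0297).

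Among naive mice, TgS had high CPu levels. Sgk1 was 1.72-fold higher than in FVB/N (0.78 ± 0.14, limma adjusted p = 0.00509) and Tsc22d3 1.76-fold (0.82 ± 0.19, adjusted p = 0.0216), 2 genes against 1.32% of probe sets called higher. In the same arrays 3 of 11 thalamic neuron markers were higher in TgS and 1 lower, with mean log2 signals of 7.98 to 8.32 against 7.68 to 7.71 in FVB/N. Cortical glutamatergic markers had 0 of 9 higher and 3 lower, with means of 7.90 to 7.96 against 8.39 to 8.59, and the part of either in these differences was not tested. Sult1a1 differed by 0.89 ± 0.28 (adjusted p = 0.126; 0.0365 without the 6 arrays). The naive TgS CPu arrays also lay above both naive TgR arrays for all 7 genes, as 18.7% of probe sets did, but 0 were called (limma, 0.773%; 3 genes at an unadjusted p under 0.05). TgR and FVB/N differed in 0 genes (limma, 0%; 1 at an unadjusted p under 0.05). Without naive FVB/N CPu replicate 1 neither TgS call was left (Sgk1 0.67, adjusted p = 0.147), and without replicate 2 that for Sgk1 was. In the naive PFC 0 of 7 genes were called in each of the 3 strain comparisons (limma; 10.9% for TgS minus FVB/N, 2.26% for TgR minus FVB/N and 18.6% for TgS minus TgR; 1, 1 and 4 genes at an unadjusted p under 0.05). Without the 6 arrays Tsc22d3 was higher in TgS than in FVB/N (0.50, adjusted p = 0.0131; 3.73% of probe sets called).

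Between the regions of naive mice, Zbtb16 was 2.66-fold higher in the PFC (1.41 ± 0.12, limma adjusted p = 1.32e-08). Every PFC array lay above every CPu array, and the share of all probe sets that did so is not given. The second Zbtb16 probe set gave only 0.26 ± 0.08, also called. Sgk1 (-0.46 ± 0.08), Fkbp5 (-0.34 ± 0.08) and Tsc22d3 (-0.33 ± 0.11) were lower in the PFC, so that 1 gene was higher and 3 lower where 34.9% and 25.2% of probe sets were. With the 6 arrays left out, 1 was higher and 4 were lower, against 23.8% and 29.4%. Zbtb16 was then 1.22, Sgk1 -0.35, Fkbp5 -0.69 and Tsc22d3 -0.22, and Pdk4 moved from 0.03, not called, to -0.82 (adjusted p = 2.35e-05). The other Tsc22d3 probe sets gave -0.76 and 0.22 in naive mice with all arrays, called in opposite directions. After MPTP Zbtb16 was again higher (1.16 ± 0.13) and Pdk4 (-1.12 ± 0.14), Sgk1 (-0.83 ± 0.09), Plin4 (-0.55 ± 0.21) and Fkbp5 (-0.34 ± 0.09) were lower, 1 and 4 genes against 19.7% and 23.2%. The second Fkbp5 probe set gave 0.07 there and the second of Zbtb16 0.075, neither called. Ordered by group mean, the highest level of 5 genes was in MPTP TgS CPu, of Fkbp5 in MPTP FVB/N CPu and of Zbtb16 in MPTP FVB/N PFC. The arrays of the highest group stood clear of those of the second for Sgk1 and Zbtb16, and overlapped them for the other 5 genes.

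A list of genes for the receptor and the handling of the hormone had 17 measured. In the CPu 1 was higher after MPTP and 0 lower over strains (median 0.03), against 0.884% of all probe sets higher. This was the heat shock protein gene Hsph1, 0.23 ± 0.06 (limma adjusted p = 0.0438). Nr3c1 differed by -0.21 ± 0.08 (adjusted p = 0.267) and Hsd11b1, whose enzyme regenerates active hormone, by -0.16 ± 0.09 (adjusted p = 0.519). In the PFC both were lower after MPTP, Nr3c1 by -0.18 ± 0.07 (adjusted p = 0.0497) and Hsd11b1 by -0.29 ± 0.08 (adjusted p = 0.0049), and without the 6 arrays by -0.25 and -0.45. There 3 of 17 were higher and 5 lower, against 22.9% of all probe sets higher and 60.9% called in all. Without the 6 arrays 9 were higher and 2 lower, against 28.5% higher. No single-symbol probe set was used for Nr3c2, the mineralocorticoid receptor.

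Of 32 other measured genes known to be glucocorticoid-induced, 12 were higher and 0 lower after MPTP in the CPu over strains (0.884% of all probe sets higher). Their median was 0.32 against 0.01 over all probe sets, and 19 were higher without the 6 PFC arrays (2.2%). The smallest p-values were those of Lcn2, a secreted iron-scavenging protein that inflammation also induces (3.46 ± 0.21), Xdh, xanthine dehydrogenase (0.69 ± 0.08), the transcription factor Cebpd (1.10 ± 0.17) and the transcription factor Klf15 (0.42 ± 0.07; limma adjusted p = 0.00325). Klf9 (0.16 ± 0.06, adjusted p = 0.255) and the clock gene Per1 (0.20 ± 0.12, adjusted p = 0.572) were not called. By strain 7 were higher in FVB/N (all probe sets 0.199%), 6 in TgS (0.743%) and 0 in TgR (0.0265%), with medians of 0.43, 0.38 and 0.10. The response in TgR was below those in FVB/N and TgS for 25 of these 32 genes, as for all 7 above, and of the 32 only Lcn2 had a called difference of response between TgR and FVB/N (-2.96 ± 0.53, adjusted p = 0.0188).

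In the PFC 17 of the 32 were higher and 2 lower after MPTP over strains, against 22.9% of all probe sets higher and 60.9% called in all. Without the 6 arrays 26 were higher and 1 lower, against 28.5% higher. Klf9 was higher (0.17 ± 0.06, limma adjusted p = 0.0128), and Per1 was not called with all arrays (-0.19 ± 0.11) and was higher without the 6 (0.45, adjusted p = 0.000279). TgR had the smallest response of the 3 strains for 28 of the 32 genes, and Lcn2 alone was called for TgR against FVB/N (-3.74 ± 0.41, limma adjusted p = 0.000464). The share of all probe sets with their smallest response in TgR is not given for either region. Their median PFC response was also lowest in TgR (-0.105, against -0.064 in FVB/N and -0.058 in TgS).

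**Figure D5:**
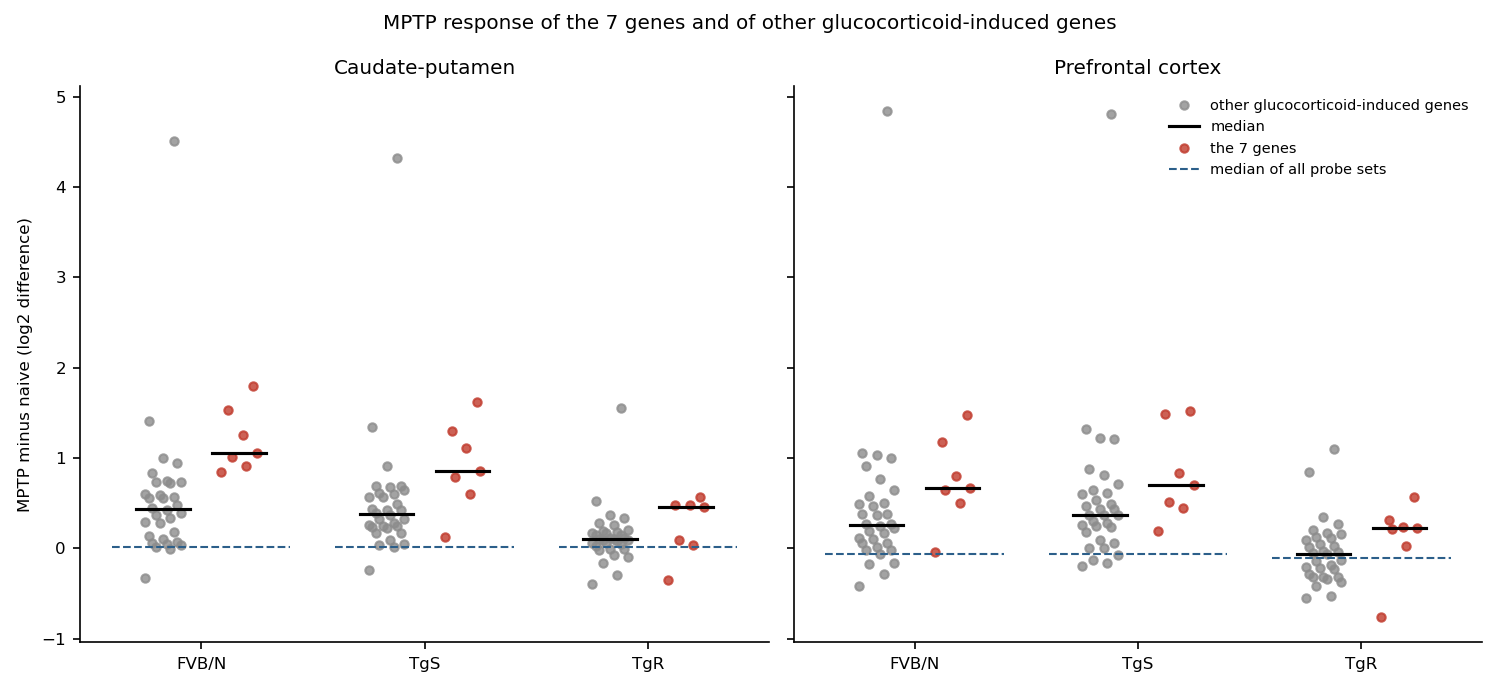
MPTP minus naive log2 difference of 32 other glucocorticoid-induced genes (grey) and of the 7 genes (red) in each strain, with the median of each as a black line and the median of all probe sets as a dashed line. In the CPu the medians of the 32 were 0.43 in FVB/N, 0.38 in TgS and 0.10 in TgR, and the highest grey point in the FVB/N and TgS columns is Lcn2.

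Over the 29 arrays, after each region's mean was subtracted, the genes most like the 7 were often one another. Plin4 and Sult1a1 had a Pearson r of 0.944, and Plin4 and Fkbp5 0.924. Among other genes Fkbp5 was most like Cebpd (0.924) and Acer2 (0.919), Plin4 and Sult1a1 most like Lcn2 (0.933 and 0.910), and Zbtb16 most like Gjb6 (0.887) and Cdc37l1 (0.881). Pdk4 was most like Aff1 (0.925), Rhou (0.900) and Spsb1 (0.899), none of them among the 7. Tsc22d3 was most like Camk1g (0.883), and Sgk1 most like Sult1a1 (0.863). Within the CPu the 21 pairs of the 7 genes had r between 0.70 and 0.98 (11 arrays), and within the PFC between -0.02 and 0.96 (18 arrays). These arrays share treatment groups, so the values describe a common pattern of groups as much as of arrays.

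Markers of other cell types moved beside the 7 genes in the CPu. Over all probe sets 0.884% were higher there over strains and 1.43% called in all. Of 11 microglial markers 7 were higher after MPTP over strains. Their mean log2 signal was 8.72 to 9.03 in naive and 9.15 to 9.55 in MPTP arrays, with the TgR MPTP array the highest. Of 12 meningeal and fibroblast markers 6 were lower, with means of 7.79 to 8.22 against 7.36 to 7.85. Astrocyte markers had 1 of 12 higher and 1 lower, endothelial and mural markers 2 of 14 higher, and thalamic neuron markers 1 of 11 lower. No oligodendrocyte (9), choroid plexus (9), striatal (8) or cortical neuron (9) marker was called there, nor any of 7 reference genes, although the choroid plexus median was -0.50. In the PFC 4 of 11 microglial markers were higher and 2 lower over strains, and endothelial and mural markers moved from 3 of 14 higher and 5 lower with all arrays to 9 higher and 0 lower without the 6. Meningeal and fibroblast markers moved likewise from 0 of 12 higher and 6 lower to 6 higher and 1 lower. These PFC counts stand beside 22.9% of all probe sets higher and 60.9% called in all, and 28.5% higher without the 6. The part of these cells in the differences of the 7 genes was not tested.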

How the data were processed

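The deposited values are log2 signals that the authors made with RMA, Affymetrix Power Tools and Affymetrix Expression Console, per the submitters' processing notes (without versions). The table holds 22690 probe sets, of which 64 controls were left out. Symbols came from the platform annotation (20380 probe sets with 1 symbol, 691 with several, 1555 with none). No raw scans or detection calls were used, so the number of arrays limits precision.

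All differences came from limma 3.58.1 (R 4.3.3): 12 group means plus a term for naive PFC replicates 3 and 4, whose region label is spelled differently, 16 residual degrees of freedom, two-sided moderated tests, Benjamini-Hochberg within each comparison. The fit was tested on simulated data. Intervals are 95%. The genes named are the 7 genes, Nr3c1, Nr3c2, Hsd11b1, Per1, Klf9, called genes of 2 pathway lists (up to 4 per list and comparison, of which some are printed) and the 3 genes most like each of the 7. The 7 genes and all lists were chosen with earlier results of these data known, so no list was tested. Alternatives were the set term, both sets of naive PFC arrays, a replicate block, each region alone, quantile normalization, a filter on low signals, the variance model, the mean of a gene's probe sets and each array left out.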

Additional observations from a re-analysis of the deposited data

Results flagged for a closer look

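The MPTP response of Sgk1 differed between regions by 0.37 on the log2 scale, larger in the CPu than in the PFC, and that of Pdk4 by 1.15. Both passed the limma test of the difference itself, 2 of 7 genes where 43.3% of all probe sets were called. For Fkbp5 (-0.53) and Tsc22d3 (-0.76), 1 other probe set each was called smaller in the CPu. Without the 6 naive PFC arrays that stand apart the Sgk1 difference was 0.48 and the Pdk4 difference 0.30, the latter not called.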

How the results depend on the processing

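Counts are of called pairs of gene and comparison. Between regions 9 pairs were called, and every alternative run gave 8 to 10. For MPTP in the PFC 19 were called, and 15 to 21 under every alternative. For MPTP in the CPu 16 were called, 7 without the set term and 11 to 19 under the other settings that kept all CPu arrays. Between naive strains 2 were called, 1 without the set term, 5 without naive PFC replicates 1 and 2 and 8 without replicates 3 and 4. Between strains after MPTP 7 were called, 0 without the set term (limma), 17 and 12 without either naive PFC set, and 2 with the replicate block. For differences of response 2 were called, 1 without the set term, and 4 and 6 without either set. Between the naive PFC sets 2 were called under every alternative that could be fitted, but Fkbp5 lost its call with the mean of its probe sets (-0.19). Leaving out each array in turn (28 of 29 where the comparison needs the single MPTP TgR CPu array, which then could not be fitted) gave 8 to 9 calls between regions, 0 to 4 between naive strains, 2 to 16 between strains after MPTP, 9 to 19 for MPTP in the CPu, 15 to 20 for MPTP in the PFC, 2 to 3 for differences of response and 2 between the sets. The lowest naive strain count came without naive FVB/N CPu replicate 1. The CPu count fell to 10 and 9 without MPTP FVB/N CPu replicates 1 and 2. The count after MPTP was 2 without either MPTP TgR PFC array, 3 or 4 without any single MPTP FVB/N array or MPTP TgS PFC array or naive TgR PFC replicate 4, and 16 without MPTP TgS CPu replicate 1. One called value reversed: Pdk4 in the TgR PFC was 0.20 without naive replicates 1 and 2. The cause of these changes was not tested.

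The replicate block left 19, 12 and 2 calls for MPTP in the PFC, MPTP in the CPu and differences of response, 8 between regions, 2 between naive strains and 2 between the sets. Numbers did not visibly pair naive PFC arrays of different strains. Their deviations from group means correlated 0.19 to 0.61 between arrays of 1 number, but also 0.28 to 0.68 between numbers 1 and 2 or 3 and 4. Once the set was removed same-number correlations ran from -0.67 to 0.20, a range that the set term itself pushes down. Arrays of 1 number in the PFC and the CPu were not compared, so whether they share mice was not tested.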
